A study of Mus musculus with 12 samples.

Results

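The histone cluster genes are the rows of the deposited expression tables whose gene name starts with Hist1h, Hist2h, Hist3h or Hist4h, which are 70 of 51826 genes. By name they comprise 6 linker histone (H1) genes and 64 core histone genes, of which 20 are H2A, 19 H2B, 12 H3 and 13 H4. The GENCODE M21 annotation gives Hist1h2aj and Hist1h2al (H2A) and Hist3h2bb-ps (H2B) as pseudogenes. The rule goes by the gene name alone, and no expression value entered it.

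The study sequenced poly-A RNA of MC38 cells, a mouse colorectal carcinoma line, to ask what loss of Smarcd1, which encodes a subunit of SWI/SNF (BAF) chromatin remodellers, does with and without interferon (IFN). The 12 libraries formed 4 groups of 3, namely Smarcd1 knockout cells with IFN, untreated Smarcd1 knockout cells, wild-type cells with IFN and untreated wild-type cells. The labels do not give which IFN was used, at what dose or for how long, the number of knockout clones, or whether replicates came from separate cultures, so p values measure only the spread between these samples. Groups were taken from the sample titles. For 6 samples the genotype and treatment fields disagree with the titles and exchange untreated knockout cells with IFN-treated wild-type cells; the labels of knockout cells with IFN and of untreated wild-type cells agree. Under those fields the effect of IFN in wild-type cells and that of the knockout without IFN exchange names, as do the effect of IFN in knockout cells and that of the knockout with IFN, and the interaction stays the same.

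Replication-dependent histone genes lie in clusters and are transcribed mainly in S phase, when new DNA has to be packaged. Core histones H2A, H2B, H3 and H4 form the nucleosome, and H1 binds the linker DNA between nucleosomes. Unlike other mRNAs, most of these transcripts end just after a conserved stem-loop that is bound by the stem-loop binding protein, and carry no poly-A tail, so poly-A selection captures few of them. Some of the genes also make transcripts that run on past the stem-loop to a polyadenylation signal, which are known from cells that have left the cycle or are differentiating.

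Libraries held 31752685 to 45721356 counts, and the histone cluster genes took 42509 of 448500825 counts over all libraries, or 0.00948%. Counts per library over the 70 genes were 2083 to 5443. Smarcd1 was at 58.7 to 60.5 CPM (counts per 1000000 of the library total scaled by edgeR's TMM factor) in knockout cells with IFN and 49.4 to 54.9 CPM in untreated knockout cells, against 86.4 to 123 CPM in wild-type cells with IFN and 81.7 to 106 CPM in untreated wild-type cells, which follows the titles. Untreated wild-type replicate 2 stood apart, with 4.82% of its counts from mitochondrial genes, against 1.52% to 2.99% in the other libraries, and 1452 CPM of the proliferation marker Mki67, against 699 to 1142 CPM in the others. Of 8 epithelial markers, 2 (Krt19 and Cdh1) passed the filter on low counts and Epcam and Cdx2 were at 0 counts in every library, so most markers of the labelled cell type were at or near 0. Their sum was 1.18 to 1.33 CPM in knockout cells with IFN and 4.24 to 5.14 CPM in untreated knockout cells, against 1.91 to 2.07 CPM in wild-type cells with IFN and 5.48 to 6.34 CPM in untreated wild-type cells. Of 4 leukocyte markers 1 passed the filter, with Cd3e and Adgre1 at 0 counts and a sum of at most 0.549 CPM, and the sum of 2 endothelial markers was 1.11 to 2.84 CPM. The 3 fibroblast markers all passed, with sums of 108 to 113 CPM in knockout cells with IFN, 96.8 to 103 CPM in untreated knockout cells, 207 to 242 CPM in wild-type cells with IFN and 169 to 196 CPM in untreated wild-type cells; the part of these markers in the histone values was not tested.

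The stem-loop is shown first because it is the feature that sets these genes apart in a poly-A library. In the GENCODE M21 transcripts (GRCm38), 44 of the 68 members that matched by identifier hold a perfect stem of 6 base pairs around a loop of 4 bases after the stop codon, in 8 different sequences that start 21 to 58 bases after it. Below are those of genes described later with their CPM values and, last, the commonest H4 form, written as DNA with the loop in capitals.
Hist1h1c, Hist1h1d, Hist1h1e, Hist1h2ae, Hist1h2be and Hist1h2bg on chromosome 13, Hist3h2a on chromosome 11 and Hist2h3c1 on chromosome 3: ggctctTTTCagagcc
Hist1h4i on chromosome 13: ggccctTTTTagggcc
Hist1h4j on chromosome 13: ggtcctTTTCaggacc
Hist1h3g on chromosome 13: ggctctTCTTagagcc
Hist1h4c on chromosome 13: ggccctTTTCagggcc
The first of these is shared by 24 genes of the H1, H2A, H2B and H3 classes, and the last by 7 H4 genes. The annotated transcript went on for 840 bases past the stem-loop in Hist1h1c, 330 in Hist1h4i, 1643 in Hist3h2a, 155 in Hist1h2bg and 1861 in Hist1h2be. No such stem-loop was found in the annotated transcripts of Hist1h2bc and Hist2h2be. For some other members the annotation ends at or just after the stop codon, as in Hist1h4k (0 bases past it) and Hist1h2af (1). A stem-loop could not be found in those, so its absence there is not a result about the gene.

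The upstream sequences of 4 of the better counted genes are given next, because 3 of them (Hist1h1c, Hist3h2a and Hist1h2bg) had lower counts with IFN in knockout cells and the other, Hist1h4i, did not pass the test in any comparison. Each is the 200 bases before the RefSeq gene start (GRCm38.p6), 5′ to 3′ on the gene's strand, with matches to CCAAT, ATTTGCAT (the octamer of H2B promoters), TATAAA and AAACACA (described for H1 promoters) in capitals on either strand.
Hist1h1c, chr13:23738607-23738806, plus strand: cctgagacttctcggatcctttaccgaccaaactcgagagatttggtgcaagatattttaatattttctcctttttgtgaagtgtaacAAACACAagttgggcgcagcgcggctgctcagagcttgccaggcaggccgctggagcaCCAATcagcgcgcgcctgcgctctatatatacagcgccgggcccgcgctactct
Hist3h2a, chr11:58954485-58954684, plus strand: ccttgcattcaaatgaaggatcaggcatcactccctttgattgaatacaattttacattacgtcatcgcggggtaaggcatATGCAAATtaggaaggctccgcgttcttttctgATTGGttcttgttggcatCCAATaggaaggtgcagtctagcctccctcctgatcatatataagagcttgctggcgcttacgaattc
Hist1h2bg, chr13:23571200-23571399, plus strand: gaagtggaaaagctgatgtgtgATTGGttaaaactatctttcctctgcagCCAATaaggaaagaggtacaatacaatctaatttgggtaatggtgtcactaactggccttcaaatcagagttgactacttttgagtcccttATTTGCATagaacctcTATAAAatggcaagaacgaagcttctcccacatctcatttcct
Hist1h4i, chr13:22041363-22041562, minus strand: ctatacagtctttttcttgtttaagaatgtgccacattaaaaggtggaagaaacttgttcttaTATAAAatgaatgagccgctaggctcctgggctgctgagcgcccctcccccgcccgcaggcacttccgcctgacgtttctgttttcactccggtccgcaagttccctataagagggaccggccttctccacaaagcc
In Hist1h1c the AAACACA match began 112 bases and the CCAAT match 54 bases before the start. In Hist1h2bg the octamer began 59 bases and TATAAA 43 bases before it, and Hist3h2a held the octamer on the other strand. The Hist1h2bg stretch spans the gap of 175 bases to Hist1h2ae, which is transcribed the other way, and its first bases lie within the annotated Hist1h2ae transcript. In all, 13 such head-to-head pairs, each of 1 H2A and 1 H2B gene, have gaps of 172 to 305 bases. In the pair with the gap of 172 bases, Hist3h2a lies next to the pseudogene Hist3h2bb-ps. Over the 63 RefSeq promoters matched to 62 members (250 bases before to 50 after the start), CCAAT was in 6 of 6 H1, 18 of 18 H2A, 17 of 17 H2B, 10 of 10 H3 and 3 of 12 H4 promoters, against 37.41% of 32851 promoters in the genome. The well counted H2B genes Hist1h2bc and Hist2h2be had no entry among these promoters, so the H2B counts leave them out. ATTTGCAT was in 7 of 18 H2A and 7 of 17 H2B promoters and in 0 of the other classes, against 1.74% of all. AAACACA was in 5 of 6 H1 promoters, against 7.18% of all. These are letter matches only, with no measurement of binding.

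The genes were counted very unequally. By mean CPM over the 12 libraries, 9 members were well counted (at least 1 CPM; 1.17 to 18.9), 40 were low (under 1 CPM but past the filter; 0.167 to 0.961), 18 were barely counted and did not pass the filter (0.00614 to 0.216), and Hist2h2aa1, Hist2h2bb and Hist2h3b had 0 counts in every library, where 3 counts over all libraries would be 0.00669 CPM. The 9 well counted genes held 81.1% of the members' counts and the first 4 of them, Hist1h1c, Hist1h2bc, Hist1h4i and Hist2h2be, held 70.9%. Next to the boundary, Hist2h3c1 lay inside at 1.17 CPM and Hist1h4k outside at 0.961 CPM. Among linker genes Hist1h1c was well counted, Hist1h1b, Hist1h1d and Hist1h1e were low and Hist1h1a and Hist1h1t were barely counted.

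**Figure D1:**
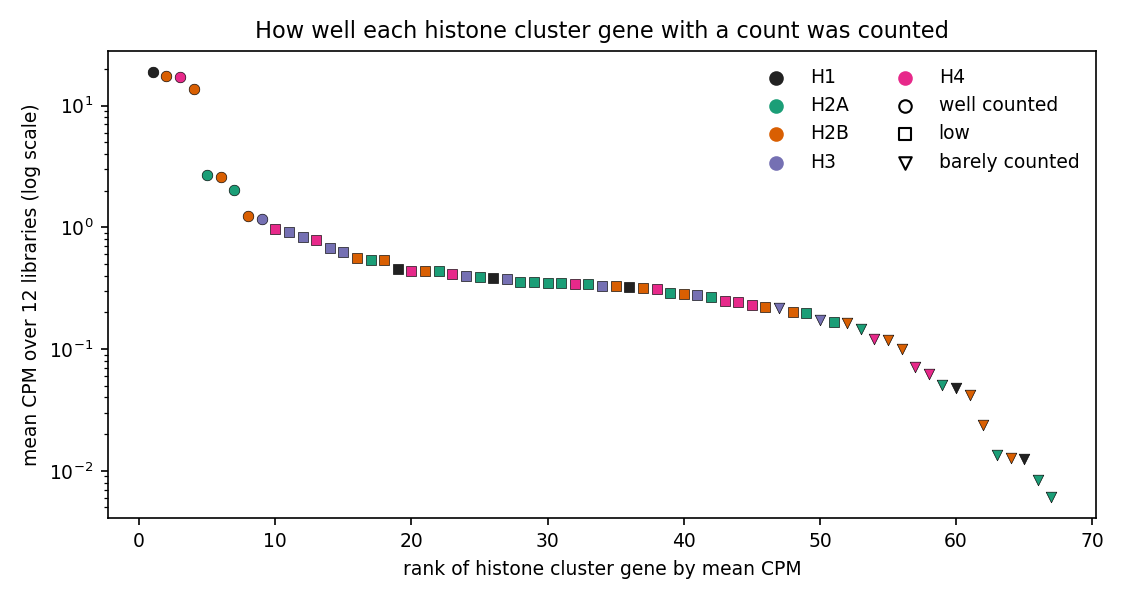
Mean CPM over 12 libraries (y axis, log scale) of the 67 histone cluster genes with a count, ranked from the best counted (x axis), with the class in colour and the counting tier as the marker shape. The first 4 genes lie at 13.8 to 18.9 CPM, the other 5 well counted genes between 1.17 and 2.67 CPM, and the rest below 1 CPM; CPM is not corrected for transcript length.

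Per transcript length, in the authors' TPM (transcripts per 1000000), Hist1h2bc and Hist1h4i were the highest members, with means of 48.4 and 48.0 TPM over the 12 libraries, followed by Hist1h1c (24.7 TPM), Hist1h2bg (11.1 TPM), Hist2h2be (10.7 TPM) and Hist1h2af (10.3 TPM). Hist1h2bc averaged 19.8 ± 1.19 TPM and Hist1h4i 42.8 ± 1.77 TPM in knockout cells with IFN (SD, n = 3 each). In untreated wild-type cells Hist1h2bc averaged 64.1 ± 2.42 TPM and Hist1h4i 52.6 ± 21.4 TPM, a difference within the spread between libraries. In these 3 libraries Hist1h4i was at 63.8, 27.9 and 66.1 TPM and Hist1h2bc at 61.6, 66.4 and 64.2 TPM. The lower mean of Hist1h4i rests on replicate 2.

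The well counted members were more often annotated with long 3′ ends. The tiers go by CPM, which is not corrected for transcript length, so a longer transcript can reach a higher tier at the same level. By mean TPM, Hist1h4k of the low tier (6.17) was above Hist3h2a of the well counted tier (2.52). Of the 9 well counted genes 6 had a stem-loop, and each of these 6 had an annotated transcript reaching more than 100 bases past it (median 1003.5 bases), against 11 of 27 low members with a stem-loop (median 47 bases) and 5 of 10 barely counted ones (median 82.5 bases). This is a description of the annotation, and no source used here says which program and annotation release made the counts, or how it treated strand and reads that match several genes. The genes also resemble each other: 21 of 68 members shared more than 50% of their 150-base stretches (the read length) with another member, and 18 shared none.

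With IFN, the poly-A RNA of knockout cells held lower levels of the linker histone gene Hist1h1c and of 12 core histone genes, 7 of them H2B genes. That of wild-type cells held lower levels of 3, Hist1h1c, Hist2h2be and Hist1h2be, which were also among the 13. Tests were made with the quasi-likelihood test of edgeR on the 16676 genes past the filter, with Benjamini-Hochberg adjustment over all of them and a threshold of 0.05, and 49 members passed the filter. With IFN in knockout cells 13 of these 49 fell and 0 rose, where 7.28% of all tested genes fell and 5.47% rose (12.8% changed either way). With IFN in wild-type cells 3 of 49 fell and 0 rose, where 4.72% of all fell and 4.66% rose (9.38% either way). The knockout with IFN, compared with wild-type cells with IFN, had 8 of 49 lower and 0 higher, where 10.6% of all were lower and 5.11% higher (15.7% either way). Without IFN the knockout had 0 of 49 past the threshold, where 17% of all changed (10.6% lower and 6.43% higher); 4 had an unadjusted p under 0.05, the DESeq2 Wald test also called 0 and limma on log2(TPM + 1) called 1.

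Median log2 fold changes over the 49 were -0.89 with IFN in knockout cells, -0.23 with IFN in wild-type cells, -0.61 for the knockout with IFN and 0.07 for the knockout without IFN; the medians over all tested genes lay within 0.01 of 0 in all 4. With IFN in knockout cells 48 of the 49 values were negative, and in 28 the 3 IFN libraries lay below all 3 untreated ones (20.5% of all tested genes did so). With IFN in wild-type cells 8 did (14.1% of all). For the knockout with IFN 17 lay wholly below wild-type cells and 1 wholly above (21.7% and 19.4% of all), and without IFN 4 lay below and 7 above (18.2% and 15.3% of all). A low member could pass the filter through the groups where it was high, so these tallies are descriptions only. On the 2 groups compared alone, 42 members passed the filter for IFN in knockout cells and 37 for the knockout with IFN. Of the 9 well counted members, 9 were negative with IFN in knockout cells and 7 lay wholly below. IFN in knockout cells and the knockout with IFN share the 3 libraries of knockout cells with IFN, so their values are not independent. In bulk RNA, fewer cells in S phase and less histone RNA per cell cannot be told apart. The values cover only RNA captured by poly-A selection, and total histone RNA, most of it without a tail, was not measured.

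**Figure D2:**
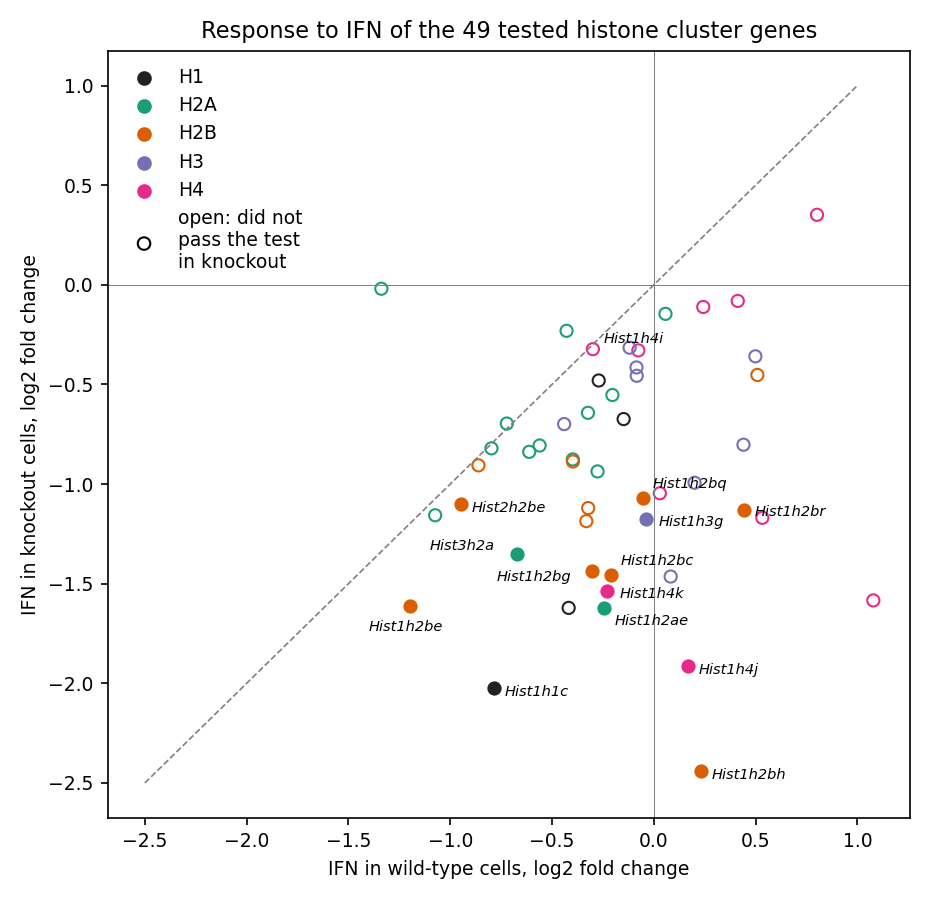
Log2 fold change with IFN in knockout cells (y axis) and in wild-type cells (x axis) for the 49 tested histone cluster genes, coloured by class; filled points fell in knockout cells at adjusted p under 0.05 and the dashed line marks equal values. Among the filled points, Hist1h1c (-2.02 in knockout cells), Hist1h2bc (-1.46) and Hist1h2bh (-2.44) lie below the line, while Hist2h2be (-1.10 and -0.95) lies close to it.

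Summed over all 70 genes, the level was 55.9 ± 1.99 CPM in knockout cells with IFN and 115 ± 2.69 CPM in untreated knockout cells, and 88.5 ± 4.15 CPM in wild-type cells with IFN and 120 ± 14.4 CPM in untreated wild-type cells (SD, n = 3 each). The 3 libraries of knockout cells with IFN (54.1 to 58.0 CPM) lay below the other 9. By class, the mean in knockout cells with IFN was 0.261 of that in untreated knockout cells for H1, 0.416 for H2B, 0.614 for H2A, 0.661 for H3 and 0.757 for H4. In wild-type cells the same ratios were 0.594 for H1, 0.728 for H2B, 0.721 for H2A, 0.985 for H3 and 0.877 for H4. These sums are carried by few genes, H1 by Hist1h1c and H4 by Hist1h4i.

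**Figure D3:**
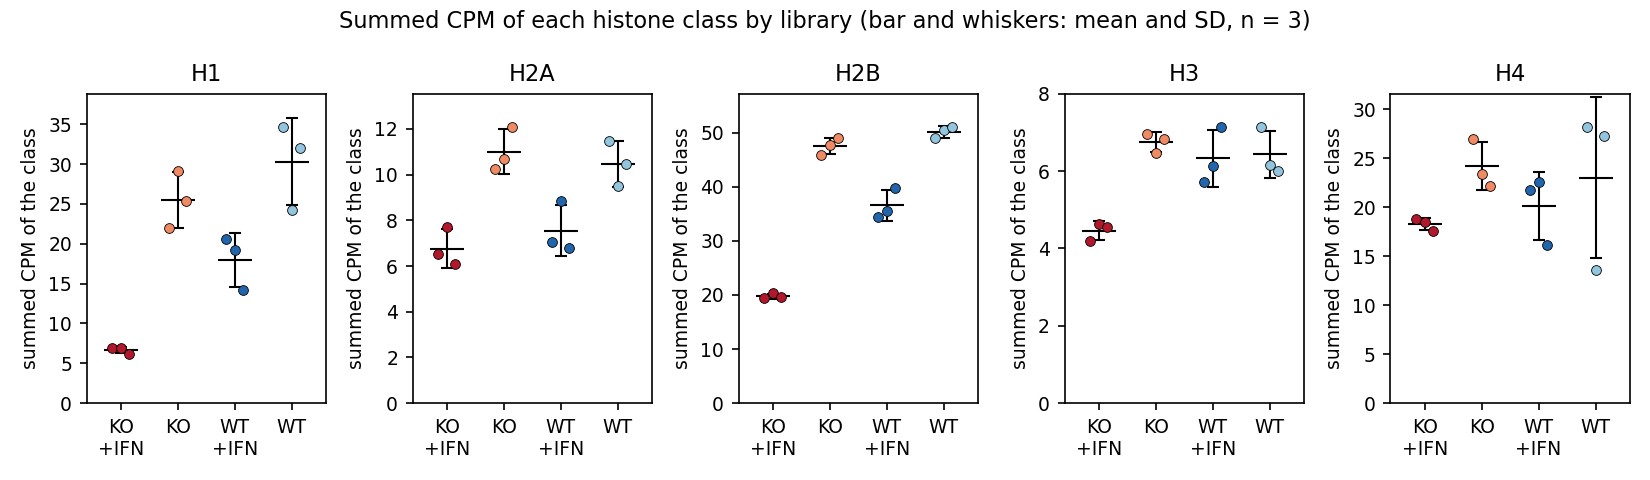
Summed CPM of the H1, H2A, H2B, H3 and H4 cluster genes in each library (points), by group, with the mean and SD (n = 3). H1 is at 6.18 to 6.94 CPM and H2B at 19.3 to 20.3 CPM in knockout cells with IFN, below every other library; the low H4 point in untreated wild-type cells (13.5 CPM) is replicate 2.

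Among linker histones, Hist1h1c (H1.2; chromosome 13, 23738808 to 23740367, plus strand, a single exon) had 6.16, 6.16 and 5.61 CPM in knockout cells with IFN and 21.4, 27.7 and 23.7 CPM in untreated knockout cells. In wild-type cells it had 19.1, 17.5 and 13.4 CPM with IFN and 32.8, 22.9 and 30.3 CPM untreated. The libraries of the IFN groups lay below those of their untreated groups in both genotypes, and knockout cells with IFN lay below every other library. Hist1h1c fell with IFN in knockout cells by 2.02 ± 0.17 on the log2 scale (SE; edgeR adjusted p = 4.65e-06) and in wild-type cells by 0.78 ± 0.16 (adjusted p = 0.00863, a call lost at 0.0556 when only those 2 groups were fitted). It was lower in knockout than in wild-type cells with IFN (-1.48 ± 0.17, adjusted p = 5.51e-05), and without IFN the difference of -0.24 ± 0.16 did not pass (adjusted p = 0.328). None of its 150-base stretches is shared with another member.

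The other linker genes past the filter were counted far less, and edgeR called none of them in any comparison. Hist1h1b had 0.226, 0.0538 and 0.0519 CPM in knockout cells with IFN, 0.0736, 0.265 and 0.212 CPM in untreated knockout cells, 0.372, 0.701 and 0.36 CPM in wild-type cells with IFN, and 0.811, 0.169 and 0.610 CPM in untreated wild-type cells. Both knockout groups lay low, with 1 low library in untreated wild-type cells. For the knockout with IFN Hist1h1b had -2.03 ± 0.71 (edgeR adjusted p = 0.0741), and without IFN -1.50 ± 0.65 (adjusted p = 0.136). Without untreated wild-type replicate 2 both passed (adjusted p = 0.0357 and 0.0482), and without IFN-treated knockout replicate 1 the comparison with IFN did (adjusted p = 0.043). The DESeq2 Wald test called Hist1h1b for the knockout with IFN (adjusted p = 0.0362). Hist1h1d had 0.135 to 0.242 CPM in knockout cells with IFN and 0.172 to 0.997 CPM in untreated knockout cells (log2 fold change -1.62 ± 0.64, edgeR adjusted p = 0.128; 0.0388 without untreated wild-type replicate 2 and untreated knockout replicate 1 together). Hist1h1e overlaps Hist1h2be on the same strand, and its values ranged from 0.180 to 0.675 CPM with overlapping groups.

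Of the H2A genes, Hist3h2a (chromosome 11, 58954685 to 58956830, plus strand) had 1.35, 1.10 and 0.986 CPM in knockout cells with IFN and 2.75, 3.23 and 2.84 CPM in untreated knockout cells, against 2.17, 2.61 and 2.82 CPM in wild-type cells with IFN and 4.98, 3.07 and 4.09 CPM in untreated wild-type cells. Knockout cells with IFN lay below every other library, and the IFN groups below their untreated groups. Hist3h2a fell with IFN in knockout cells by 1.35 ± 0.21 (edgeR adjusted p = 0.000804) and was lower in knockout than in wild-type cells with IFN (-1.14 ± 0.21, adjusted p = 0.0024). In wild-type cells the change of -0.67 ± 0.20 with IFN missed the threshold (adjusted p = 0.0519) and passed without untreated replicate 2 (-0.84, adjusted p = 0.0136). Without that library the knockout without IFN also passed (-0.62, adjusted p = 0.0367; -0.46 ± 0.19 and 0.127 with it). The span of Hist3h2a overlaps Trim17 on the same strand and Gm44313 on the other, so reads of the 3 cannot always be told apart.

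Hist1h2ae, the head-to-head neighbour of Hist1h2bg, had 0.203, 0.0807 and 0.311 CPM in knockout cells with IFN and 0.589, 0.723 and 0.552 CPM in untreated knockout cells. Those groups did not overlap, and Hist1h2ae fell by 1.62 ± 0.43 (edgeR adjusted p = 0.028), but the call was lost without any 1 of the 3 untreated knockout libraries or without replicate 1 or 2 of the IFN-treated ones (adjusted p 0.0503 to 0.0997). Hist1h2af, the other well counted H2A gene, passed no test. Its libraries ranged from 1.71 to 3.15 CPM in knockout cells with IFN, 2.0 to 3.27 CPM in untreated knockout cells, 1.08 to 2.39 CPM in wild-type cells with IFN and 1.30 to 1.74 CPM in untreated wild-type cells. In Hist1h2af the change with IFN was -0.15 ± 0.30 in knockout cells and 0.06 ± 0.32 in wild-type cells (adjusted p = 0.806 and 0.94). Untreated knockout libraries of Hist1h2af lay above untreated wild-type ones, but the difference of 0.70 ± 0.31 did not pass (adjusted p = 0.146), and 58.4% of its 150-base stretches are shared with other members.

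H2B genes made up 7 of the 13 members that fell with IFN in knockout cells and 12 of the 49 tested members. Among the 7, Hist1h2bq and Hist1h2br share most of their sequence with other members. Hist1h2bc (chromosome 13, 23684199 to 23692908, plus strand, 2 exons) had 6.72, 7.61 and 7.42 CPM in knockout cells with IFN and 21.0, 19.8 and 18.8 CPM in untreated knockout cells, against 17.7, 19.0 and 23.1 CPM in wild-type cells with IFN and 22.1, 24.1 and 22.9 CPM in untreated wild-type cells. Knockout cells with IFN stood alone, below the other 9 libraries, which spanned 17.7 to 24.1 CPM. The log2 fold change with IFN was -1.46 ± 0.11 in knockout cells (edgeR adjusted p = 2.66e-06) and -0.21 ± 0.11 in wild-type cells (adjusted p = 0.27). Between genotypes with IFN the difference was -1.46 ± 0.11 (adjusted p = 2.29e-06), and without IFN the difference of -0.21 ± 0.11 did not pass (adjusted p = 0.209).

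Hist2h2be, a replication-dependent H2B gene on chromosome 3 (96221119 to 96223738, plus strand), had another pattern. It had 8.98, 9.01 and 8.30 CPM in knockout cells with IFN and 16.3, 18.8 and 21.2 CPM in untreated knockout cells, against 9.51, 9.72 and 8.95 CPM in wild-type cells with IFN and 17.7, 17.7 and 18.9 CPM in untreated wild-type cells. The 6 libraries with IFN lay between 8.30 and 9.72 CPM and the 6 without it between 16.3 and 21.2 CPM, and the genotypes overlapped both with and without IFN. Hist2h2be fell with IFN by 1.10 ± 0.11 in knockout cells and by 0.95 ± 0.11 in wild-type cells (edgeR adjusted p = 2.31e-05 and 0.000157). The difference between genotypes was -0.10 ± 0.11 with IFN (adjusted p = 0.611) and 0.05 ± 0.11 without (adjusted p = 0.776).

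Hist1h2be gave 0.496, 0.538 and 0.649 CPM in knockout cells with IFN and 1.72, 1.64 and 1.80 CPM in untreated knockout cells, against 0.588, 0.925 and 0.961 CPM in wild-type cells with IFN and 1.83, 2.03 and 1.83 CPM in untreated wild-type cells. The IFN and untreated libraries were separate in both genotypes. It fell with IFN by 1.61 ± 0.21 in knockout cells and by 1.20 ± 0.21 in wild-type cells (edgeR adjusted p = 0.000287 and 0.00364). With IFN the genotypes differed by -0.56 ± 0.23 (adjusted p = 0.127; 0.0404 without IFN-treated wild-type replicate 1). Its annotated span of 23583670 to 23621124 on the minus strand of chromosome 13 overlaps Hist1h1e and Gm11398 on the same strand.

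Hist1h2bg (chromosome 13, 23571396 to 23572013, plus strand) followed Hist1h2bc rather than Hist2h2be in its values. It had 1.13, 0.969 and 1.38 CPM in knockout cells with IFN and 3.34, 2.96 and 3.10 CPM in untreated knockout cells, against 2.66, 2.55 and 3.03 CPM in wild-type cells with IFN and 3.22, 3.49 and 3.48 CPM in untreated wild-type cells. Knockout cells with IFN again lay below the other 9 libraries. It fell with IFN in knockout cells by 1.43 ± 0.16 (edgeR adjusted p = 6.78e-05), was lower in knockout than in wild-type cells with IFN (-1.25 ± 0.16, adjusted p = 0.000182), and did not pass for IFN in wild-type cells (-0.30 ± 0.15, adjusted p = 0.258). Of its 150-base stretches 33.3% are shared with other members.

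Hist1h2bh, with 140 counts in all, had 0.0451, 0.108 and 0.0779 CPM in knockout cells with IFN and 0.393, 0.434 and 0.446 CPM in untreated knockout cells, against 0.496, 0.319 and 0.421 CPM in wild-type cells with IFN and 0.377, 0.309 and 0.366 CPM in untreated wild-type cells. The 3 libraries of knockout cells with IFN lay below all others. It fell with IFN in knockout cells by 2.44 ± 0.39 (edgeR adjusted p = 0.00129) and was lower in knockout than in wild-type cells with IFN (-2.40 ± 0.40, adjusted p = 0.00135). GENCODE M21 holds no gene with the identifier of Hist1h2bh, so how much of its sequence other members share was not measured. Hist1h2bq and Hist1h2br fell with IFN in knockout cells by 1.07 ± 0.29 and 1.13 ± 0.31 (adjusted p = 0.029 and 0.0313). They share 92.4% and 84.2% of their 150-base stretches with other members and are not independent counts. Both calls were lost without untreated knockout replicate 2 or 3 or without IFN-treated knockout replicate 1 or 2, and that of Hist1h2br also without IFN-treated knockout replicate 3 (adjusted p 0.0614 to 0.126 over both genes). For the knockout without IFN, Hist1h2br had 0.91 ± 0.31 (adjusted p = 0.0629; 0.0194 without untreated knockout replicate 1).

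**Figure D4:**
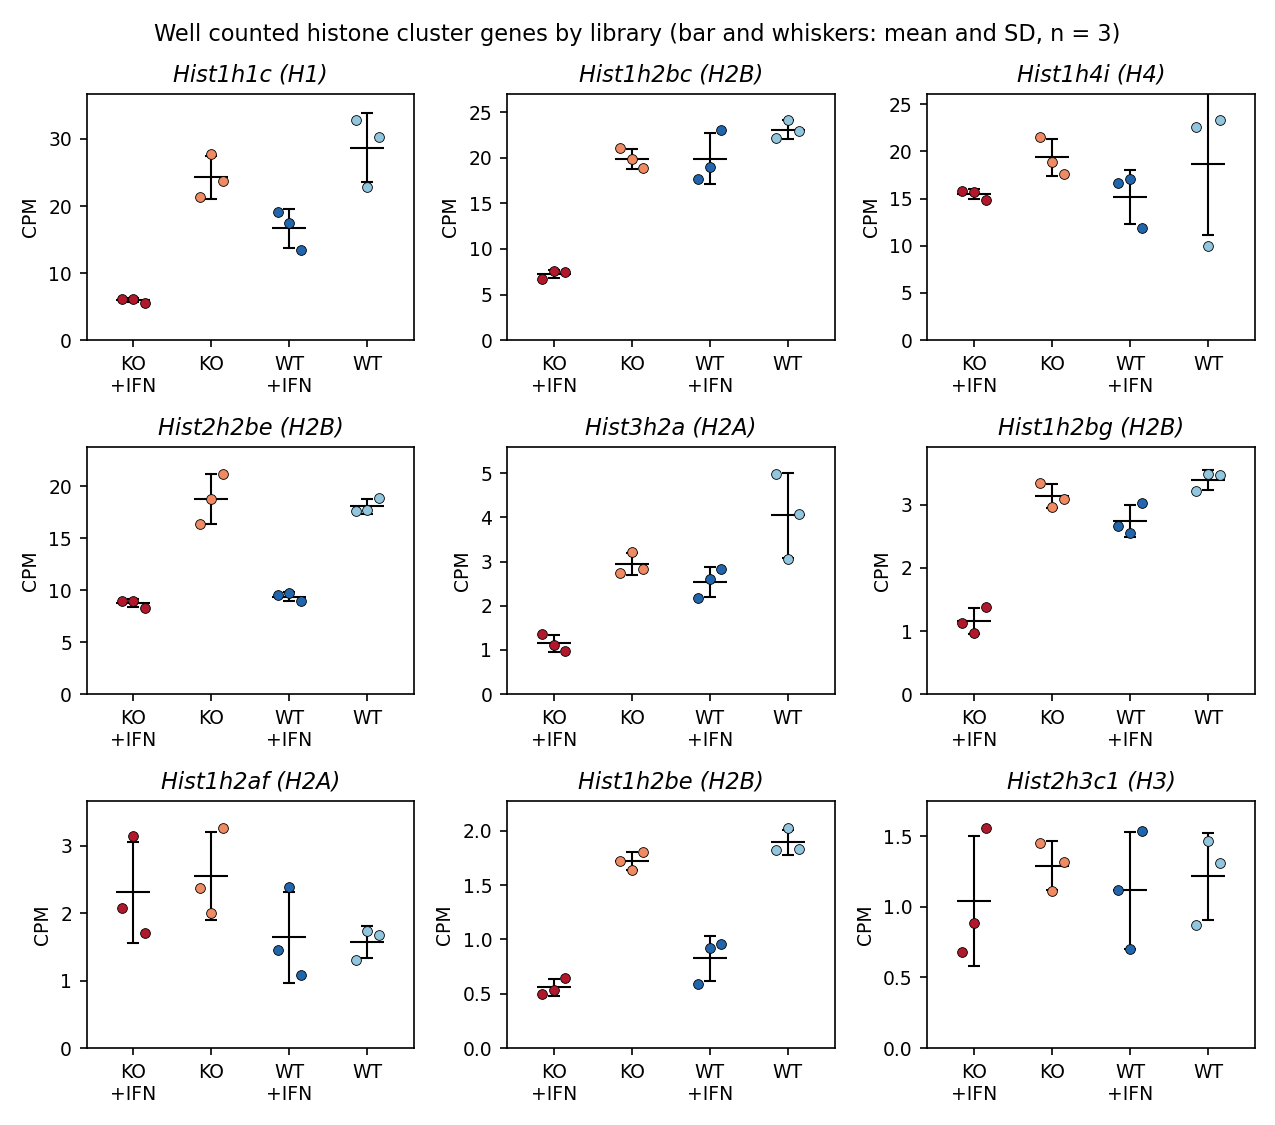
CPM of the 9 well counted histone cluster genes in each library (points), by group, with the mean and SD (n = 3); each axis starts at 0. Hist1h1c, Hist1h2bc, Hist3h2a and Hist1h2bg are lowest in knockout cells with IFN, Hist2h2be and Hist1h2be are low in both IFN groups, and in Hist1h2af and Hist2h3c1 the IFN groups overlap their untreated groups.

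Of the H3 genes, Hist1h3g (chromosome 13, 23535422 to 23535951) had 0.383, 0.350 and 0.182 CPM in knockout cells with IFN and 0.663, 0.530 and 0.891 CPM in untreated knockout cells, against 0.805, 0.925 and 0.811 CPM in wild-type cells with IFN and 1.04, 0.591 and 0.976 CPM in untreated wild-type cells. Knockout cells with IFN lay below the other 9 libraries. With IFN, Hist1h3g was lower in knockout than in wild-type cells (-1.46 ± 0.34, edgeR adjusted p = 0.0122; 0.0517 without IFN-treated knockout replicate 3). Its fall with IFN in knockout cells (-1.18 ± 0.34, adjusted p = 0.0408) was lost in 9 of the 12 fits that left out 1 library, those without untreated wild-type replicate 3, without any IFN-treated library of either genotype, and without untreated knockout replicate 1 or 3 (adjusted p 0.0512 to 0.153). Hist2h3c1, the well counted H3 gene, had 0.677 to 1.56 CPM in knockout cells with IFN and 1.11 to 1.45 CPM in untreated knockout cells, 0.701 to 1.53 CPM in wild-type cells with IFN and 0.869 to 1.46 CPM in untreated wild-type cells, and its groups overlapped.

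Of the H4 genes, the best counted did not pass and 2 low ones did. Hist1h4i (chromosome 13, 22040636 to 22041362, minus strand) had 15.8, 15.7 and 14.8 CPM in knockout cells with IFN and 21.6, 18.9 and 17.7 CPM in untreated knockout cells, against 16.6, 17.0 and 11.9 CPM in wild-type cells with IFN and 22.6, 10.02 and 23.3 CPM in untreated wild-type cells. The low value in untreated wild-type cells is replicate 2, and in knockout cells the IFN libraries lay below the untreated ones. Its change with IFN was -0.32 ± 0.25 in knockout cells (edgeR adjusted p = 0.46) and -0.30 ± 0.25 in wild-type cells (adjusted p = 0.531); without that replicate the change in wild-type cells was -0.60 and passed (adjusted p = 0.022).

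Hist1h4k had 0.406, 0.404 and 0.311 CPM in knockout cells with IFN and 1.15, 1.13 and 0.997 CPM in untreated knockout cells, against 1.02, 1.18 and 1.08 CPM in wild-type cells with IFN and 1.68, 1.04 and 1.13 CPM in untreated wild-type cells. It fell with IFN in knockout cells by 1.54 ± 0.25 (edgeR adjusted p = 0.00121) and was as much lower in knockout than in wild-type cells with IFN (-1.54 ± 0.25, adjusted p = 0.00105); 53.4% of its 150-base stretches are shared with other members. Hist1h4j had 0.226, 0.188 and 0.0779 CPM in knockout cells with IFN and 0.614, 0.578 and 0.700 CPM in untreated knockout cells. In wild-type cells Hist1h4j had 0.496, 0.574 and 0.451 CPM with IFN and 0.464, 0.281 and 0.610 CPM untreated. It fell with IFN in knockout cells by 1.91 ± 0.40 (adjusted p = 0.00655). With IFN it was lower in knockout than in wild-type cells (-1.59 ± 0.41, adjusted p = 0.019), a call lost without IFN-treated wild-type replicate 2 (0.0672) or IFN-treated knockout replicate 3 (0.0713).

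**Figure D5:**
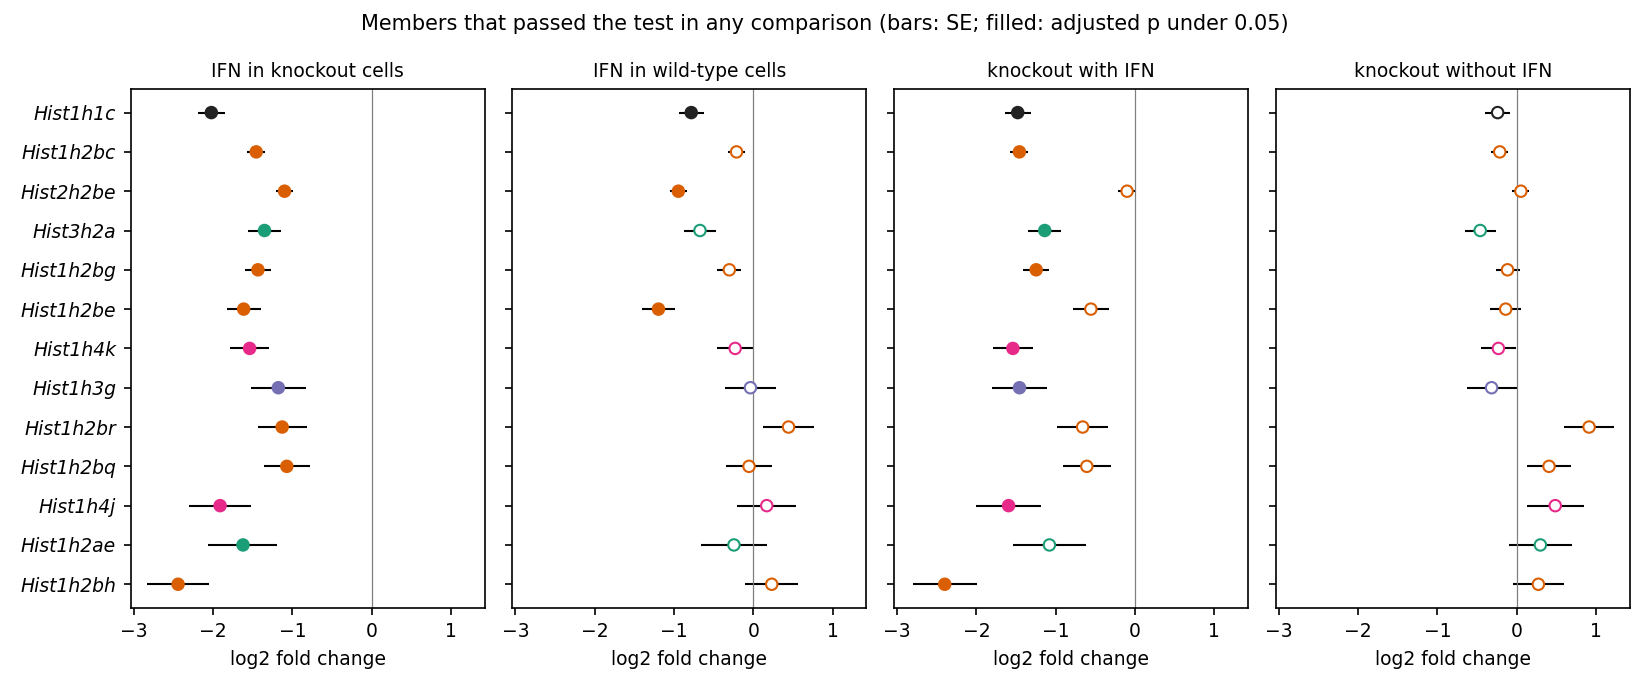
Log2 fold change (x axis; bars are the SE) of the 13 members that passed the test in any comparison, coloured by class, for IFN in knockout cells, IFN in wild-type cells, knockout against wild type with IFN and knockout against wild type without IFN; filled points have an adjusted p under 0.05. All 13 are filled for IFN in knockout cells, 3 for IFN in wild-type cells, 8 for the knockout with IFN and 0 for the knockout without IFN.

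Whether the response to IFN differed between the genotypes was tested as the interaction, the change with IFN in knockout cells minus that in wild-type cells. Of the 49 members 4 passed, all with a more negative value in knockout cells (0.312% of all tested genes passed in that direction and 1.02% either way). They were Hist1h1c (-1.24 ± 0.23, edgeR adjusted p = 0.0183), Hist1h2bc (-1.24 ± 0.16, adjusted p = 0.00106), Hist1h2bg (-1.13 ± 0.22, adjusted p = 0.028) and Hist1h2bh (-2.67 ± 0.52, adjusted p = 0.0279). Hist2h2be, in contrast, had -0.15 ± 0.15 (adjusted p = 0.713). Leaving out 1 library at a time kept the call of Hist1h2bc in all 12 fits. The call of Hist1h1c was lost in 6 of them, without IFN-treated wild-type replicate 1 or 2, untreated knockout replicate 2 or any IFN-treated knockout replicate (adjusted p 0.0529 to 0.0683). That of Hist1h2bg was lost in 10, kept only without untreated wild-type replicate 2 or IFN-treated knockout replicate 3 (0.056 to 0.0963). That of Hist1h2bh was also lost in 10, kept only without IFN-treated wild-type replicate 2 or IFN-treated knockout replicate 2 (0.0548 to 0.108). Hist1h4k, which did not pass (adjusted p = 0.121), did so without untreated wild-type replicate 1 (0.0499). Under the other alternatives Hist1h2bc kept its call. That of Hist1h1c was lost with limma on log2(TPM + 1) (limma adjusted p = 0.0686). Without the filter Hist1h2bg (edgeR adjusted p = 0.0676) and Hist1h2bh (0.0584) were lost, the latter also with a replicate block (0.0833). Leaving out untreated wild-type replicate 2 and untreated knockout replicate 1 together lost Hist1h2bg (0.0622) and Hist1h2bh (0.0692).

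Genes that act with histone supply were examined as lists. Over all tested genes, edgeR called 5.47% higher and 7.28% lower with IFN in knockout cells, and 4.66% and 4.72% with IFN in wild-type cells. For the knockout with IFN it called 5.11% higher and 10.6% lower, and without IFN 6.43% and 10.6%. The counts of each list are to be set beside these shares. Of 30 S phase and replication genes, edgeR called 4 higher and 0 lower with IFN in knockout cells. Of the 30, 11 had an unadjusted p under 0.05 and 14 had a negative log2 fold change. The DESeq2 Wald test and limma each called 4 higher and 3 lower. The smallest edgeR p values among the 4 were in the transcription factor gene E2f2 (0.44 ± 0.08, edgeR adjusted p = 0.00437), the primase gene Prim1 (0.41) and the cyclin gene Ccne1 (0.34). With IFN in wild-type cells 4 fell and 0 rose (0 rose by the DESeq2 Wald test and limma too, and 8 had an unadjusted p under 0.05), led by the helicase gene Mcm6 (-0.34 ± 0.06, adjusted p = 0.00474), Dtl (-0.43) and Gins1 (-0.29). For the knockout with IFN 11 were higher and 1 lower, led by E2f2 (0.68), Prim1 (0.60) and the polymerase gene Pole (0.47), and without IFN 3 were higher and 1 lower, led by Ccne1 (-0.46), Tyms (0.28) and E2f1 (0.36). Their summed level was 6454 to 6616 CPM in knockout cells with IFN and 6635 to 7003 CPM in untreated knockout cells, and 5777 to 6072 CPM in wild-type cells with IFN and 6178 to 6423 CPM in untreated wild-type cells. The sums were lower in each IFN group, with means of 0.967 of the untreated mean in knockout cells and 0.933 in wild-type cells, where the sums of the histone cluster genes were 0.487 and 0.736. The part of cell cycle phase in the histone values was not tested.

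The transcripts of replication-independent histone genes are in general polyadenylated. Of 16 genes listed here as such, 11 were tested. Their median log2 fold changes were -0.32 with IFN in knockout cells, -0.17 with IFN in wild-type cells, -0.07 for the knockout with IFN and -0.01 without. In the same order the cluster genes had -0.89, -0.23, -0.61 and 0.07. The difference between these lists was not tested. By edgeR, with IFN in knockout cells 3 fell and 0 rose, the linker gene H1f0 (-0.50 ± 0.10, edgeR adjusted p = 0.00666), the macroH2A gene H2afy2 (-0.32) and H2afx (-0.33). In wild-type cells 1 fell with IFN, H1f0 (-0.44 ± 0.10, adjusted p = 0.0184). For the knockout with IFN 2 were higher, H2afy2 (0.40) and H2afv (0.42), and 1 lower, H2afx (-0.38); without IFN 2 were higher, H2afy2 (0.49) and H2afv (0.40), and 1 lower, H3f3b (-0.27). The linker gene H1fx was listed at 0 CPM in IFN-treated knockout replicate 2 and IFN-treated wild-type replicates 1 and 2, and at 25.0 to 40.1 CPM in the other 9 libraries. It passed no edgeR test.

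Among 20 genes of histone mRNA processing and transcription, Srrt was the 1 gene that rose with IFN in knockout cells (0.36 ± 0.08, edgeR adjusted p = 0.00734), and Srrt (0.38) and Upf1 (0.42), which acts in histone mRNA decay, rose with IFN in wild-type cells. The stem-loop binding protein gene Slbp was higher in the knockout with IFN (0.32 ± 0.10, adjusted p = 0.0423), where the uridylyltransferase gene Zcchc6 was lower (-0.50). Without IFN 2 were lower in the knockout, Zcchc6 (-0.64) and Zcchc11 (-0.60). In this list, for the knockout with IFN, the DESeq2 Wald test called 1 higher and 1 lower. There limma called 0 higher and 1 lower, so the call of Slbp was not made by limma. Without IFN the DESeq2 Wald test called 2 higher and 3 lower, and limma 0 and 1. Of 24 histone chaperone genes, edgeR called 0 with IFN in either genotype; 4 had an unadjusted p under 0.05 in knockout cells and 3 in wild-type cells, and the DESeq2 Wald test called 0 and 1, limma 0 in both. In the knockout the H3.3 chaperone gene Daxx was lower with IFN (-1.88 ± 0.13, adjusted p = 9.79e-07) and without it (-1.71 ± 0.13, adjusted p = 1.51e-06), among 4 lower and 4 higher with IFN and 2 lower and 0 higher without. The DESeq2 Wald test called 4 lower and 4 higher with IFN and 3 lower and 1 higher without. Both with and without IFN, limma called 3 lower and 0 higher.

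RNAs that carry no poly-A tail, which enter such libraries when selection is incomplete, gave 6 tested genes of 16, and edgeR called 0 in any comparison. At an unadjusted p under 0.05 there was 1 with IFN in knockout cells, 0 with IFN in wild-type cells, 1 for the knockout with IFN and 3 without; the DESeq2 Wald test called 1, 0, 0 and 2 in these comparisons, and limma 0. Summed, they were at 3.27 to 8.88 CPM in knockout cells with IFN and 2.92 to 4.52 CPM in untreated knockout cells, and 4.84 to 9.25 CPM in wild-type cells with IFN and 4.14 to 11.9 CPM in untreated wild-type cells. These ranges overlapped in each comparison of the design. For the knockout without IFN, 3 of the 6 genes, Rn7sk, Rn7s1 and Rn7s2, lay wholly below wild-type cells (18.2% of all tested genes did so). Rn7s1 and Rn7s2 had nearly the same values in every library, so they may not be independent counts. The mitochondrial share of counts was 2.62% to 2.99% in knockout cells with IFN, above the 1.68% to 2.58% of untreated knockout cells, and its part in the histone values was not tested.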

How the data were processed

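The 12 poly-A libraries of MC38 cells were read as 150-base pairs. Per the submitters' processing notes, the tools were HISAT2 2.1.0, Trimmomatic 0.36, FastQC 0.11.2 and CASAVA, and the build was GRCm38; for the program, strand setting and annotation behind the counts, nothing is given in the sources used here. Raw counts per gene and TPM were deposited by the authors for the same libraries, with 0 columns of other samples. Counts of 4, 6 and 8 outnumbered counts of 5, 7 and 9 by 1.85 to 1 over all genes, so low counts may hold both mates of a pair. Libraries held 31752685 to 45721356 counts, so 3 counts over all libraries are 0.00669 CPM (counting error only).

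The count model was that of edgeR 4.0.16 (R 4.3.3): filterByExpr (minimum count 10, minimum total 15) left 16676 genes, libraries were scaled by TMM, and all 12 libraries entered a robust fit with 1 mean per group, leaving 8 residual degrees of freedom. Adjusted p values are from edgeR with Benjamini-Hochberg adjustment over all tested genes, unless another tool is named. Each SE was taken as the size of the log2 fold change divided by the root of its F value. The fit was tested on simulated counts. No batch is given in the labels, and the chi-square per gene between libraries of a group was 10.7 to 116, so none was a copy.

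Named with values were each linker gene past the filter, each well counted core gene and each member past a test, with up to 3 genes per list. The members were taken by gene name, but that rule and the lists were chosen with earlier results of these data known. Positions and transcripts are from GENCODE M21 and upstream sequences from RefSeq (GRCm38.p6). Alternatives were DESeq2 1.42.0 (size factors; Wald test), no filter, the replicate number as a block, only the groups compared, limma 3.58.1 on log2(TPM + 1), and leaving out each library; leaving out untreated wild-type replicate 2 and untreated knockout replicate 1 together was added after seeing the data.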

Additional observations from a re-analysis of the deposited data

Results flagged for a closer look

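The response to IFN differed between knockout and wild-type cells in 4 of the 49 tested histone cluster genes by the test of the difference itself (edgeR interaction, Benjamini-Hochberg adjustment). All 4 were more negative in knockout cells, where 0.312% of all tested genes passed in that direction and 1.02% either way. Hist1h2bc had an interaction of -1.24 (adjusted p = 0.00106), with -1.46 in knockout cells and -0.21 in wild-type cells. Hist1h1c had -1.24 (adjusted p = 0.0183), with -2.02 in knockout cells and -0.78 in wild-type cells. Hist1h2bg had -1.13 (adjusted p = 0.028), with -1.43 in knockout cells and -0.30 in wild-type cells. Hist1h2bh had -2.67 (adjusted p = 0.0279), with -2.44 in knockout cells and 0.23 in wild-type cells. With 1 library left out, the call of Hist1h2bc held in 12 of 12 fits, that of Hist1h1c in 6 and those of Hist1h2bg and Hist1h2bh in 2 each (adjusted p up to 0.0683 for Hist1h1c, 0.0963 for Hist1h2bg and 0.108 for Hist1h2bh).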

How the results depend on the processing

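No log2 fold change of the 19 named members changed sign in a way that reversed a call under the alternatives run; of 28 calls, 18 held under every alternative and 10 were lost under some, and no scaling moved the median of all genes by over 0.1. The number of members that fell with IFN in wild-type cells was 3, and 5 with limma on log2(TPM + 1) or without untreated wild-type replicate 2 and untreated knockout replicate 1 together; leaving out 1 library gave 3 to 5. For the knockout without IFN the count of 0 became 1 with limma and 1 without those 2 libraries together, and 0 to 2 with 1 library left out. For the interaction the count of 4 became 2 without the filter and 2 without those 2 libraries together, and 1 to 3 with 1 library left out. Leaving out 1 library gave 9 to 14 for IFN in knockout cells (13) and 6 to 9 for the knockout with IFN (8). For IFN in knockout cells limma called 18 and the fit without the filter 10. For IFN in wild-type cells the fit of only those groups called 2 and the DESeq2 Wald test 4. The cause of these changes was not tested. No pairing by replicate number was seen: of 18 same-numbered pairs across groups, correlations of deviations were -0.251 to 0.184 and 1 was over 0.1. With 3 libraries a group, these correlations cannot exclude a pairing. With the replicate block the counts were 11 for IFN in knockout cells, 3 for IFN in wild-type cells, 8 for the knockout with IFN, 0 for the knockout without IFN and 3 for the interaction. The interaction could not be fitted on the groups of 1 comparison. Depth limits the 40 low members, of 75 to 424 counts each over all libraries, and the 18 barely counted ones were not tested.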
